A study of Mus musculus with 8 samples.

Results

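The PAR bZIP transcription factors and the genes of the circadian clock were followed in NIH3T3 cells, Hedgehog-responsive embryonic fibroblasts of the mouse kept as a cell line. The group held 10 genes: the PAR bZIP factors Hlf, Dbp and Tef, their bZIP relative Nfil3, and the clock genes Nr1d1, Nr1d2, Per1, Per2, Per3 and Arntl. These genes were chosen by family with earlier results of the same FPKM values known, so their differences are given as a description. For each gene the mm9 locus that overlapped the annotated gene best was used, with the shared part at least 0.5 of the combined span. All 10 had such a locus in all 8 samples, among 20197 genes that did. All 10 also reached 1 FPKM in 2 or more samples, the limit for testing, which 10284 genes passed.

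The 8 RNA-Seq samples covered 4 conditions, 2 samples to a condition. The Control condition was vehicle treatment of NIH3T3-pc3.1 cells, a line with the empty pcDNA3.1 (Zeo+) vector. Hh-CM cells were the same line treated with Hh-CM diluted 1:100, and the Esrrb and Esrrb+Hh-CM groups were NIH3T3-Esrrb cells, which carry a pcDNA3.1 (Zeo+) vector for estrogen related receptor β, treated with vehicle or with Hh-CM. The conditioned medium came from human embryonic kidney cells (HEK293) with a transgene for the N-terminus of Sonic Hedgehog, and vehicle was equally diluted medium from HEK293 cells without the transgene. All cells had been selected with zeocin, were pools of cells from separate transfections, and were treated at confluence for 48 h in phenol-red free medium with newborn calf serum. The paper calls the 2 samples of a condition biological replicates, and the sources used here do not say whether they came from separate transfections, so the errors below describe the spread between these samples. Each condition was collected at one time after treatment, and the clock time of collection is not given in the sources used here, so rhythm and phase were not measured.

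PAR bZIP factors are leucine zipper proteins that activate genes through a DNA element called the D-box, and Nfil3 represses through the same element. In the core clock, Arntl (BMAL1) and Clock activate genes through E-boxes, among them the Per genes, the Cry genes, Nr1d1 and Dbp. PER and CRY proteins then inhibit Arntl and Clock, and the nuclear receptors Nr1d1 and Nr1d2 repress Arntl. NIH3T3 fibroblasts carry such a clock, whose phase differs between cells unless it is set by a shared signal such as serum.

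The label of the ligand treatment was checked on Gli1, which encodes the transcription factor that Hedgehog signaling induces. Gli1 was between 0.0217 and 0.106 FPKM in the 4 vehicle samples and between 26.8 and 34.8 FPKM in the 4 Hh-CM samples. The Esrrb locus was listed at 0 in all 4 libraries labelled Esrrb, at 0 in both Control libraries and at 0.0281 and 0.0203 FPKM in the Hh-CM libraries. The deposited values therefore give no check of the Esrrb label, and the species of the insert is not given in the sources used here. The paper itself reports Esrrb protein in the NIH3T3-Esrrb cells by Western blot, a check of the cell line and not of these libraries. The 7 fibroblast markers with a value summed to between 4935 and 5768 FPKM per sample, while 4 epithelial and 3 endothelial markers summed to at most 0.0916 and 0.184 FPKM and Epcam, Krt18 and Kdr were at 0 in all samples. The 4 leukocyte markers summed to between 1.13 and 2.91 FPKM. FPKM values scale each library to its own total, so that fewer cells of a type and less RNA per cell cannot be told apart.

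**Figure D1:**
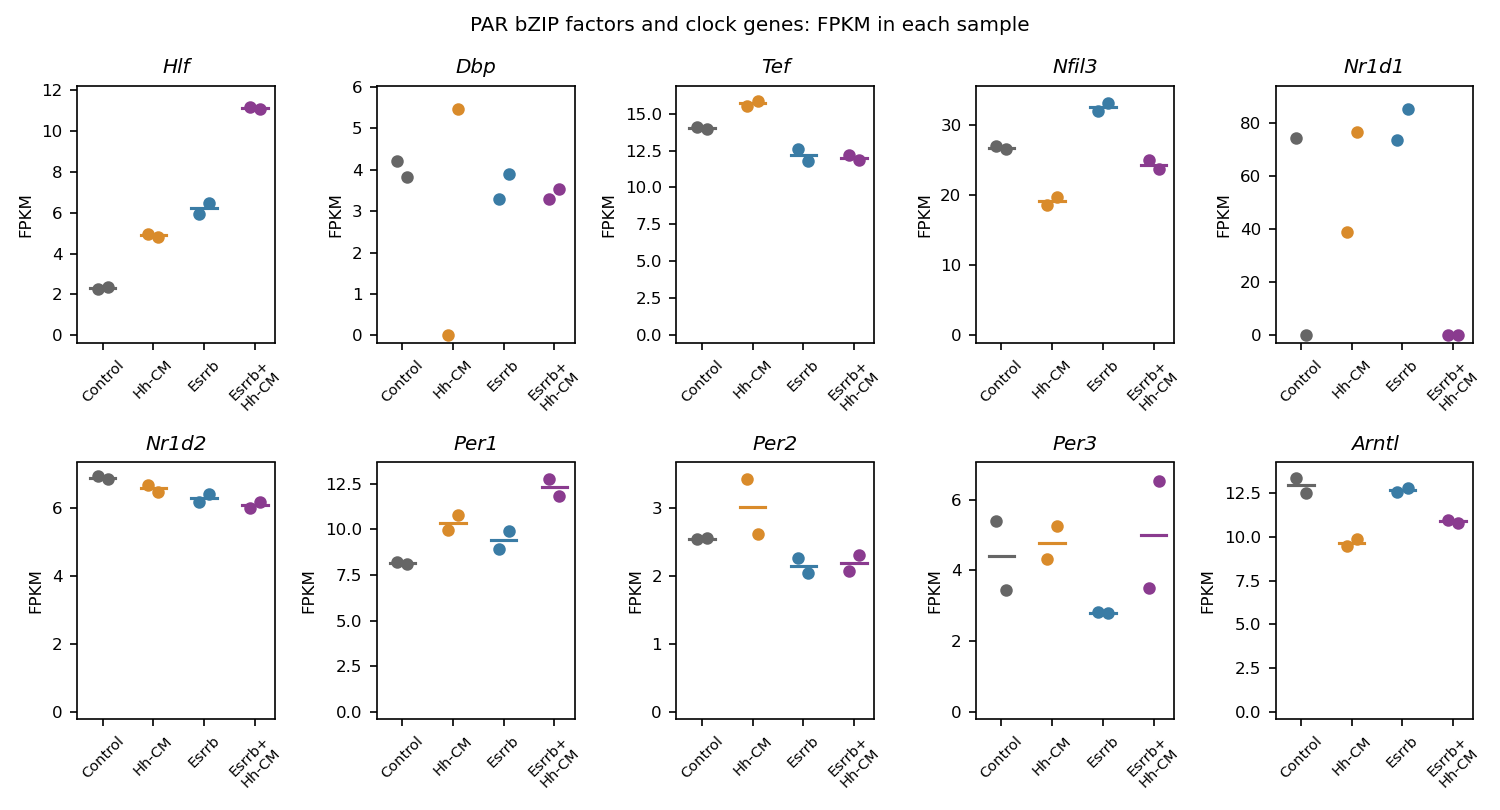
FPKM of the 10 genes in each sample, with 1 panel per gene, samples grouped by condition, a point for each of the 2 samples of a condition and a bar at their mean (no bar for Dbp and Nr1d1, which are listed at 0 in some samples). Hlf stood at 2.28 and 2.37 FPKM in Control and at 11.2 and 11.1 FPKM in Esrrb+Hh-CM samples, with the 2 single conditions between them.

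Hlf (hepatic leukemia factor) was the member with the largest differences among the 8 members that were above 0 in all samples, and it was higher with Hh-CM, higher in Esrrb-labelled cells, and highest in samples with both. It was 2.28 and 2.37 FPKM in Control samples, 4.95 and 4.83 in Hh-CM samples, 5.96 and 6.47 in Esrrb samples, and 11.2 and 11.1 in Esrrb+Hh-CM samples. The 4 conditions did not overlap, in the order Control, Hh-CM, Esrrb, Esrrb+Hh-CM. The intervals that Cufflinks gives for each value, which cover the estimation error of 1 library, reached at most 2.70 FPKM in Control and started at 10.2 FPKM in Esrrb+Hh-CM. On the log2(FPKM + 0.1) scale Hlf differed from Control by 1.04 ± 0.07 (SE, n = 2 per group) with Hh-CM, by 1.38 ± 0.07 in Esrrb cells and by 2.22 ± 0.07 in Esrrb+Hh-CM cells, the last a 4.65-fold difference. Within Esrrb-labelled cells Hh-CM went with a difference of 0.83 ± 0.07, and within Hh-CM-treated cells the Esrrb label went with 1.17 ± 0.07. All 5 differences were called at an adjusted p below 0.05 in the limma fit, and they stayed called in each of 8 fits that left out 1 library.

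The Hlf locus lies on the minus strand of chromosome 11, at chr11:90197849-90252231 in mm9, and 7 of 8 libraries gave exactly this span. Its upstream sequence is shown because Hlf carries the largest difference, and because its window holds the cAMP response element TGACGTCA, a palindrome, in capitals 9 bases upstream of the annotated start. The sequence below is the 250 bases before that start in mm9 (chr11:90252232-90252481, minus strand), from the RefSeq promoter table for GRCm38.p6 after an exact match to mm9.
Hlf: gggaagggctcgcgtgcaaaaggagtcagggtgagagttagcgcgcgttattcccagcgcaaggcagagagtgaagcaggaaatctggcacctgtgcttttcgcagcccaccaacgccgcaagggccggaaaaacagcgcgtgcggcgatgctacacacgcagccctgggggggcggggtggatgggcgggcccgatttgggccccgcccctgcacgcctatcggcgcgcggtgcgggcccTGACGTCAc

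Tef (thyrotroph embryonic factor), another PAR bZIP factor, was lower in Esrrb-labelled than in empty-vector cells. It was 14.1 and 14.0 FPKM in Control samples, 15.5 and 15.9 in Hh-CM samples, 12.6 and 11.8 in Esrrb samples, and 12.2 and 11.8 in Esrrb+Hh-CM samples. All 4 Esrrb-labelled samples lay below all 4 empty-vector samples, and the Esrrb and Esrrb+Hh-CM samples overlapped each other. Under Hh-CM the Esrrb-labelled cells were lower by a called log2 difference of -0.38 ± 0.05, which was called in all 8 fits without 1 library. The differences from Control were -0.20 ± 0.05 for Esrrb cells and -0.22 ± 0.05 for Esrrb+Hh-CM cells, both called, but they were smaller and less stable. The first was called in 0 of the 8 fits without 1 library, where it ranged from -0.25 to -0.15, and the second was lost without Control sample 1, Control sample 2 or Esrrb+Hh-CM sample 2, over a range from -0.24 to -0.20. The first was also lost with a pseudocount of 1, with other FPKM limits, without the variance trend and when only the compared groups were fitted, the last of which ended the second as well. With Hh-CM alone Tef differed from Control by 0.16 ± 0.05, which was not called.

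Dbp (D site albumin promoter binding protein), the third PAR bZIP factor, was 4.22 and 3.83 FPKM in Control samples, 3.29 and 3.89 in Esrrb samples, and 3.30 and 3.55 in Esrrb+Hh-CM samples. In Hh-CM samples it was listed at 0 in sample 1 and at 5.46 FPKM in sample 2. The locus of Sphk2, which overlaps the end of Dbp, was also listed at 0 in Hh-CM sample 1, against 6.64 to 8.22 FPKM in the 7 other samples. Values of exactly 0 were listed in at least 1 sample for 172 of the tested genes with a median FPKM of at least 1, or 1.67% of all tested genes. No fold change is given for Dbp with Hh-CM. With the 0 set to missing, an alternative added after the data were seen, Dbp was 0.43 ± 0.14 higher in the lone Hh-CM sample than in Control, which was not called, and 0.66 ± 0.14 lower in Esrrb+Hh-CM cells than in that sample, which was called. Both assume that the lone sample varies like the other groups.

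Nfil3, the repressor that shares the D-box with the PAR bZIP factors, was lower with Hh-CM in both cell lines and higher with the Esrrb label. It was 27.0 and 26.5 FPKM in Control samples, 18.6 and 19.7 in Hh-CM samples, 32.0 and 33.2 in Esrrb samples, and 24.9 and 23.7 in Esrrb+Hh-CM samples. The 4 conditions did not overlap, in the order Hh-CM, Esrrb+Hh-CM, Control, Esrrb, which differs from that of Hlf. The log2 difference with Hh-CM was -0.48 ± 0.05 in empty-vector cells and -0.42 ± 0.05 in Esrrb-labelled cells, and both were called in all 8 fits without 1 library. With the Esrrb label Nfil3 was higher by 0.28 ± 0.05 under vehicle and by 0.34 ± 0.05 under Hh-CM. The vehicle call was lost without any one of the 4 samples compared (0.26 to 0.31), and the Hh-CM call was lost without Hh-CM sample 1 (0.30) and when only the compared groups were fitted. Esrrb+Hh-CM cells differed from Control by -0.14 ± 0.05, which was not called, but which was called at -0.22 when FPKM were rescaled between libraries.

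**Figure D2:**
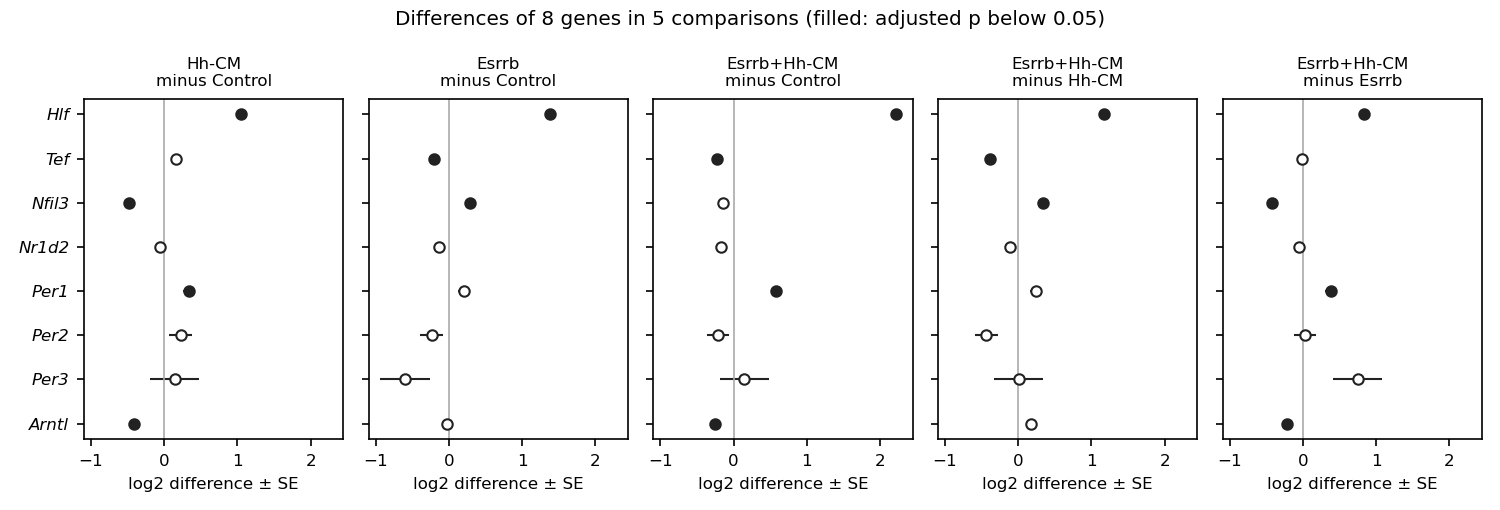
Log2 differences (points) with standard errors (bars) of the 8 genes above 0 in all samples, in the 5 comparisons, 1 panel each, on log2(FPKM + 0.1). Filled points were called at an adjusted p below 0.05. Hlf lies to the right in every panel, from 0.83 to 2.22, while Nfil3 lies at -0.48 and -0.42 in the 2 comparisons with Hh-CM within a cell line.

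The Period genes encode inhibitors of the Arntl and Clock pair, and they did not move as 1 group. Per1 was 8.22 and 8.11 FPKM in Control samples, 9.97 and 10.8 in Hh-CM samples, 8.90 and 9.94 in Esrrb samples, and 12.8 and 11.8 in Esrrb+Hh-CM samples. The conditions did not overlap, in the order Control, Esrrb, Hh-CM, Esrrb+Hh-CM, though the highest Esrrb sample and the lowest Hh-CM sample were nearly level. The log2 difference from Control was 0.34 ± 0.08 with Hh-CM and 0.58 ± 0.08 in Esrrb+Hh-CM cells, and Esrrb+Hh-CM cells were 0.38 ± 0.08 above Esrrb cells. All 3 were called. The second stayed called in all 8 fits without 1 library, the first was lost without Control sample 1, Control sample 2, Hh-CM sample 1 or Hh-CM sample 2 (0.28 to 0.40), and the last was lost without Esrrb sample 1 (0.30) or Esrrb+Hh-CM sample 1 (0.33). The first and the last were also lost with no FPKM limit and when only the compared groups were fitted.

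The Per1 locus was not assembled alike in all samples. It started between chr11:68908747 and chr11:68908786 in 5 samples, and at chr11:68912458 in Hh-CM sample 1, Hh-CM sample 2 and Esrrb+Hh-CM sample 1. In these 3 samples the upper bound of the Cufflinks interval was 36.4, 42.9 and 33.7 FPKM, far above the values of 9.97, 10.8 and 12.8 FPKM. Esrrb+Hh-CM sample 2 kept the earlier start and was 11.8 FPKM with an interval from 10.8 to 12.9, above the intervals of both Control samples, which ended at 8.98 and 8.82 FPKM. The part of the locus start in the Per1 difference was not tested.

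Per2 was 2.54 and 2.56 FPKM in Control samples, 3.43 and 2.62 in Hh-CM samples, 2.26 and 2.04 in Esrrb samples, and 2.07 and 2.31 in Esrrb+Hh-CM samples. The 4 Esrrb-labelled samples lay below the 4 empty-vector samples, and no difference was called, the one furthest from 0 being -0.44 ± 0.15 between Esrrb+Hh-CM and Hh-CM cells. Without Hh-CM sample 1 that difference was -0.25. Per3 was 5.39 and 3.43 FPKM in Control samples, 4.31 and 5.27 in Hh-CM samples, 2.83 and 2.78 in Esrrb samples, and 3.5 and 6.53 in Esrrb+Hh-CM samples. Both Esrrb samples lay below all others, but the samples of the Control and of the Esrrb+Hh-CM condition lay far apart, and no difference was called. The Per3 difference between Esrrb+Hh-CM and Esrrb cells was 0.75 ± 0.34, and it was 0.31 without Esrrb+Hh-CM sample 2 and 1.19 without Esrrb+Hh-CM sample 1.

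Arntl, the positive arm of the clock, was lower with Hh-CM. It was 13.4 and 12.6 FPKM in Control samples, 9.51 and 9.87 in Hh-CM samples, 12.6 and 12.8 in Esrrb samples, and 11.0 and 10.8 in Esrrb+Hh-CM samples. The Control and Esrrb samples overlapped, and all 4 Hh-CM-treated samples lay below all 4 vehicle samples. The log2 difference with Hh-CM was -0.42 ± 0.05 in empty-vector cells, called in all 8 fits without 1 library, and -0.22 ± 0.05 in Esrrb-labelled cells, called in only 2 of the 8 (-0.23 to -0.20, lost without any Hh-CM, Esrrb or Esrrb+Hh-CM sample). Esrrb+Hh-CM cells were 0.25 ± 0.05 lower than Control, a call that was lost without Control sample 1 (-0.20) or Esrrb+Hh-CM sample 2 (-0.24). The last 2 calls were also lost when only the compared groups were fitted. Arntl in Esrrb cells differed from Control by -0.03 ± 0.05.

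Nr1d2 (REV-ERBβ), a repressor of Arntl, varied little. It was 6.94 and 6.84 FPKM in Control samples, 6.68 and 6.48 in Hh-CM samples, 6.18 and 6.40 in Esrrb samples, and 6.0 and 6.17 in Esrrb+Hh-CM samples. The conditions did not overlap, yet the difference furthest from 0, that between Esrrb+Hh-CM and Control cells, was -0.18 ± 0.06 and was not called. It was called at -0.26 when FPKM were rescaled between libraries, and at -0.18 with no FPKM limit or no variance trend.

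Nr1d1 (REV-ERBα) could not be compared between conditions. It was 74.5 FPKM in Control sample 1 and listed at 0 in Control sample 2, 39.1 and 76.5 in Hh-CM samples, 73.8 and 85.25 in Esrrb samples, and listed at 0 in both Esrrb+Hh-CM samples. The 3 values of 0 came with another locus. In the 5 samples above 0 the locus assigned to Nr1d1 began at chr11:98625714 or chr11:98625715, inside the gene Thra, which encodes thyroid hormone receptor alpha and lies tail to tail with Nr1d1 on the other strand. In the 3 samples at 0 it began at chr11:98629249, and there the Thra locus ended between chr11:98630309 and chr11:98630316. The Thra locus also ended there in Hh-CM sample 1, the lowest of the samples above 0, and it ended at chr11:98629563 or chr11:98629565 in the 4 samples at 73.8 FPKM or more. For Hh-CM sample 1, Esrrb sample 1 and Esrrb sample 2 the value lies above its own Cufflinks interval, which ended at 36.7, 63.4 and 74.0 FPKM. How reads of the shared stretch were divided between Nr1d1 and Thra was not tested, and no fold change of Nr1d1 is given.

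**Figure D3:**
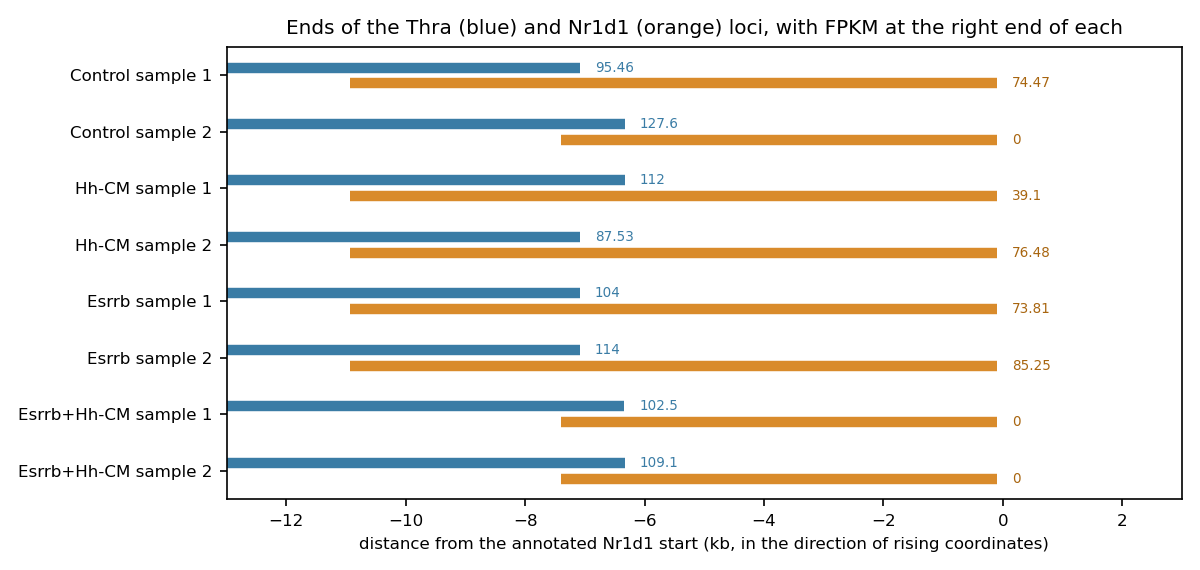
Spans of the loci assigned to Thra (blue, its left part cut off) and Nr1d1 (orange) in each sample, as distance in kb from the annotated Nr1d1 start, with the FPKM of each locus at its right end. The 3 samples with Nr1d1 at 0 are those whose orange bar begins about 7.4 kb from that start, and the other 5 begin about 10.9 kb from it.

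The 10 genes were then counted in each of the 5 comparisons of the study and in the interaction, beside the share of all tested genes called in the same direction. With Hh-CM in empty-vector cells, Hlf and Per1 were called higher and Nfil3 and Arntl lower, that is 2 and 2 of 10 genes beside 10.5% and 7.53% of all tested genes. In Esrrb against Control cells, Hlf and Nfil3 were higher and Tef lower, 2 and 1 of 10 beside 10.2% and 6.16%. In Esrrb+Hh-CM against Control cells, Hlf and Per1 were higher and Tef and Arntl lower, 2 and 2 of 10 beside 23.0% and 12.0%. In Esrrb+Hh-CM against Hh-CM cells, Hlf and Nfil3 were higher and Tef lower, 2 and 1 of 10 beside 12.4% and 6.52%. In Esrrb+Hh-CM against Esrrb cells, Hlf and Per1 were higher and Nfil3 and Arntl lower, 2 and 2 of 10 beside 13.9% and 9.51%. Since members were chosen with these values known, nothing is read from the counts against the background. These comparisons share samples, and of the 18 calls of members 10 stayed in each of the 8 fits without 1 library and 8 were lost in at least 1.

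Among the 8 members above 0 in all samples the median log2 difference was 0.15 with Hh-CM in empty-vector cells, beside 0.04 over all tested genes, -0.08 beside 0.05 for Esrrb against Control, and -0.16 beside 0.08 for Esrrb+Hh-CM against Control. It was 0.09 beside 0.05 for Esrrb+Hh-CM against Hh-CM, and 0.00 beside 0.04 for Esrrb+Hh-CM against Esrrb. Higher calls made up between 58.3% and 65.7% of the calls over all genes in the 5 comparisons, and between 47.4% and 52.4% when FPKM were rescaled between libraries. With 2 samples per group an exact two-sided permutation test of a single gene cannot give a p below 0.33.

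Whether the difference with Hh-CM differs between the cell lines was asked with the interaction, the log2 difference with Hh-CM in Esrrb-labelled cells minus that in empty-vector cells. No member was called in it, beside 0.758% of all tested genes called higher and 0.593% lower. In the same limma fit 3 of the 10 had an unadjusted p below 0.05. The 10 include Dbp and Nr1d1, whose values of 0 enter this fit, so nothing is read from the 3. The interaction of Hlf was -0.21 ± 0.10, that of Arntl 0.20 ± 0.08, that of Tef -0.18 ± 0.07 and that of Nfil3 0.06 ± 0.07 (SE, n = 2 per group). In Hlf the sum of the 2 single differences from Control was thus larger by 0.21 than the difference of 2.22 seen with both.

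**Figure D4:**
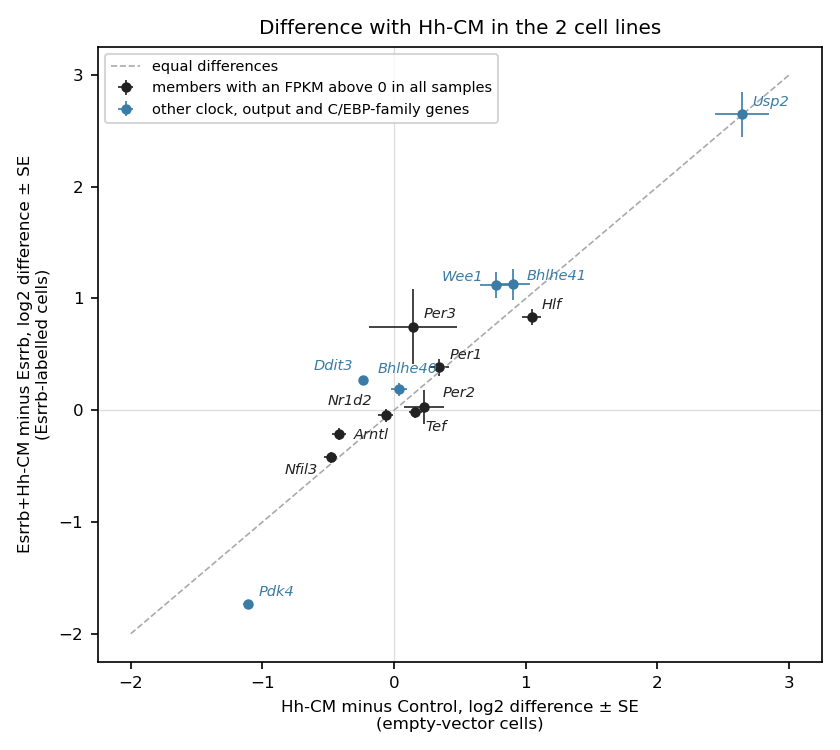
Log2 difference with Hh-CM in empty-vector cells (x axis) and in Esrrb-labelled cells (y axis), with standard errors, for the 8 members above 0 in all samples (black) and 6 other genes (blue), and a dashed line of equal differences. Hlf lies at 1.04 and 0.83, and Pdk4, at -1.11 and -1.74, lies below the line.

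The members were set beside 20 other clock genes, chosen by function: 11 core clock genes and 9 genes for kinases and ubiquitin pathway enzymes that act on clock proteins. This list and those below were also chosen with earlier results of these data known, so their counts and p-values are a description. Of these 20 genes 15 were tested. The other 5, Gm129 and Npas2 among them, had no matched locus in all samples or did not pass the FPKM limit. With Hh-CM in empty-vector cells 3 of the 15 rose and 0 fell, beside 10.5% and 7.53% of all tested genes, and their median log2 difference was 0.06 beside 0.04 over all genes. In Esrrb against Control cells 0 rose and 2 fell (limma), beside 10.2% and 6.16%, with a median of 0.08 beside 0.05. In these 2 comparisons 3 and 6 of the 15 had an unadjusted p below 0.05 in limma. The share of all tested genes at that level is not given, so nothing is read from these counts. In Esrrb+Hh-CM against Control cells 4 rose and 1 fell, beside 23.0% and 12.0%, with a median of 0.11 beside 0.08. In Esrrb+Hh-CM cells 1 rose and 2 fell against Hh-CM cells, beside 12.4% and 6.52%, with a median of -0.01 beside 0.05. Against Esrrb cells 2 rose and 2 fell, beside 13.9% and 9.51%, with a median of 0.06 beside 0.04.

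Usp2, a deubiquitinase that acts on clock proteins and is itself under clock control in many tissues, had the largest differences of the 15 with Hh-CM in both cell lines. It was 1.13 and 0.944 FPKM in Control samples, 6.51 and 7.47 in Hh-CM samples, 1.49 and 2.26 in Esrrb samples, and 11.9 and 12.2 in Esrrb+Hh-CM samples. Usp2 rose with Hh-CM by a log2 difference of 2.64 ± 0.20 in empty-vector cells (limma, adjusted p = 0.000788) and by 2.65 ± 0.20 in Esrrb-labelled cells (adjusted p = 0.000488). Under Hh-CM the Esrrb-labelled cells were 0.78 ± 0.20 higher (adjusted p = 0.0485), a call kept in 2 of the 8 fits without 1 library, over 0.68 to 0.87, and lost with no FPKM limit, with a pseudocount of 0.001, without the variance trend or after rescaling (0.73).

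Bhlhe40 and Bhlhe41 (DEC1 and DEC2), which repress through E-boxes, were both lower in Esrrb than in Control cells, and Bhlhe41 rose with Hh-CM. Bhlhe40 was 21.1 and 20.4 FPKM in Control, 21.2 and 21.3 in Hh-CM, 12.9 and 13.5 in Esrrb, and 15.8 and 14.3 in Esrrb+Hh-CM samples, so that all 4 Esrrb-labelled samples were lower. The log2 difference with the Esrrb label was -0.65 ± 0.06 under vehicle (limma, adjusted p = 0.00239) and -0.50 ± 0.06 under Hh-CM (adjusted p = 0.00519). Bhlhe41 was 1.69 and 1.91 FPKM in Control, 3.56 and 3.32 in Hh-CM, 1.04 and 1.22 in Esrrb, and 2.72 and 2.44 in Esrrb+Hh-CM samples. It rose with Hh-CM in both lines, by 0.90 ± 0.14 in empty-vector cells (adjusted p = 0.0085) and by 1.13 ± 0.14 in Esrrb-labelled cells (adjusted p = 0.00262). The first of these was lost without Control sample 1 (0.81) or Hh-CM sample 1 (0.85). With the Esrrb label Bhlhe41 fell by 0.63 ± 0.14 under vehicle (adjusted p = 0.0317), a call kept in 2 of the 8 fits without 1 library (-0.74 to -0.52) and lost with no FPKM limit or when only the compared groups were fitted. Under Hh-CM its log2 difference with the label was -0.40 ± 0.14 (adjusted p = 0.0919).

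Of the other genes of the list, Arntl2, a paralog of Arntl, was low, at 0.691 and 0.721 FPKM in Control, 0.878 and 0.871 in Hh-CM, 1.98 and 1.29 in Esrrb, and 0.686 and 1.09 in Esrrb+Hh-CM samples. Its log2 difference between Esrrb and Control cells was 1.08 ± 0.29 (limma, adjusted p = 0.0576), above that of Usp2 there, 0.77 ± 0.20 (adjusted p = 0.0542), and it was called without the variance trend. The products of the casein kinase genes Csnk1d and Csnk1e phosphorylate PER proteins. In Esrrb+Hh-CM cells these genes were 0.22 ± 0.05 and 0.31 ± 0.09 above Control (limma, adjusted p = 0.0215 and 0.0374). Neither call held with no FPKM limit or when FPKM were rescaled between libraries (0.14 and 0.23). Over the fits without 1 library the differences ranged from 0.20 to 0.25 and from 0.20 to 0.42. Against Control, neither gene was called with Hh-CM in empty-vector cells (0.05 and 0.03) or in Esrrb cells (0.15 and 0.12). Clock, Arntl2, Cry1, Cry2 and Rora were called in none of the 5 comparisons. In the interaction 0 of the 15 were called by limma, beside 0.758% of all tested genes called higher and 0.593% lower. An unadjusted p below 0.05 was found in 4 of the 15. Nothing is read from the 4, since the share of all tested genes at that level is not given.

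**Figure D5:**
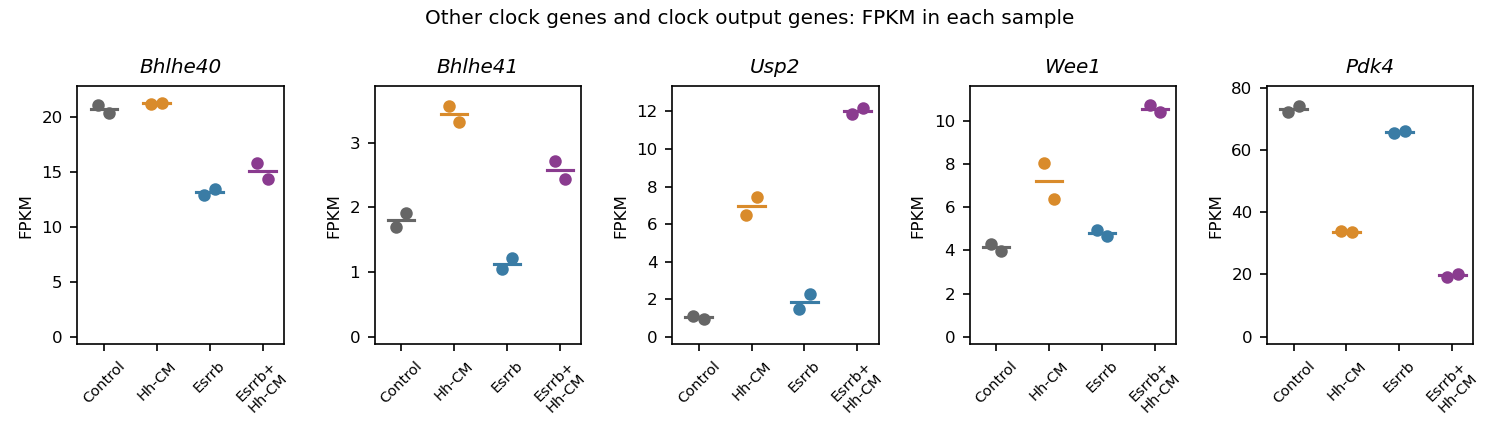
FPKM of Bhlhe40, Bhlhe41, Usp2, Wee1 and Pdk4 in each sample, with 1 panel per gene, points for samples and a bar at the mean of the 2 samples. Usp2 stands at 2.26 FPKM or less in the 4 vehicle samples and at 6.51 FPKM or more in the 4 Hh-CM-treated samples, and Pdk4 at 65.6 FPKM or more and at 33.9 FPKM or less.

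Of 10 clock output genes, named for their rhythm or clock control in other tissues, all were tested, and with Hh-CM 1 rose and 4 fell in empty-vector cells, beside 10.5% and 7.53% of all tested genes. In Esrrb-labelled cells 2 rose and 4 fell, beside 13.9% and 9.51%. Wee1, a kinase that delays mitosis, was 4.29 and 3.99 FPKM in Control, 8.02 and 6.36 in Hh-CM, 4.95 and 4.66 in Esrrb, and 10.7 and 10.4 in Esrrb+Hh-CM samples. It rose with Hh-CM by 0.77 ± 0.12 in empty-vector cells (limma, adjusted p = 0.00897) and by 1.12 ± 0.12 in Esrrb-labelled cells (adjusted p = 0.00155), the first of which was lost without Control sample 2 (0.72) and when only the compared groups were fitted. Pdk4, which inhibits pyruvate dehydrogenase, was 72.1 and 74.0 FPKM in Control, 33.9 and 33.5 in Hh-CM, 65.6 and 66.2 in Esrrb, and 19.3 and 20.1 in Esrrb+Hh-CM samples. It fell with Hh-CM, with a log2 difference of -1.11 ± 0.04 in empty-vector cells (adjusted p = 4.62e-05) and of -1.74 ± 0.04 in Esrrb-labelled cells (adjusted p = 1.08e-05). Ccrn4l (nocturnin), Por and Klf9 were the other genes that fell with Hh-CM in both lines, by log2 differences from -0.98 to -0.34. The Ccrn4l difference in empty-vector cells, -0.65 ± 0.13, was lost without Control sample 1, Control sample 2 or Hh-CM sample 1 (-0.66, -0.65 and -0.53) and with only the compared groups, and the Klf9 difference there, -0.44 ± 0.08, was lost without the same samples (-0.42, -0.46 and -0.38) and with no FPKM limit.

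The C/EBP factors, bZIP proteins whose sites resemble the D-box, were measured by 3 of 6 genes. Cebpa and Cebpe were at or near 0, and Cebpd had no matched locus in all samples. Cebpg was 22.8 and 24.5 FPKM in Control, 32.3 and 31.1 in Hh-CM, 26.1 and 25.3 in Esrrb, and 35.8 and 35.9 in Esrrb+Hh-CM samples, and rose with Hh-CM by 0.42 ± 0.05 in empty-vector cells (limma, adjusted p = 0.00343) and by 0.48 ± 0.05 in Esrrb-labelled cells (adjusted p = 0.00141). Cebpb rose by 0.72 ± 0.11 in Esrrb+Hh-CM against Control cells (adjusted p = 0.00451). Ddit3 (CHOP), a stress-induced member of the family, was 194.3 and 195.0 FPKM in Control, 165.9 and 164.8 in Hh-CM, 142.7 and 138.0 in Esrrb, and 168.4 and 169.8 in Esrrb+Hh-CM samples, so that it fell with Hh-CM in empty-vector cells and rose with it in Esrrb-labelled cells. The Ddit3 value lay above its own Cufflinks interval in all 8 samples, as did that of Cebpb in 6 of 8 and that of Pdk4 in both Control samples, and the part of this in their differences was not tested.

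Signals that set the phase of cultured cells, serum and glucocorticoids, also induce known gene sets. Samples were taken after 48 h only, so these values cannot show whether such a signal acted earlier. Of 7 tested immediate-early genes 0 were called with Hh-CM in empty-vector cells, beside 10.5% of all tested genes called higher and 7.53% lower. In that limma fit 3 of the 7 had an unadjusted p below 0.05, from which nothing is read without the share of all tested genes. In Esrrb against Control cells Junb and Dusp1 rose and 0 fell, beside 10.2% and 6.16% of all tested genes. Their log2 differences were 0.48 ± 0.09 (limma, adjusted p = 0.0181) and 0.47 ± 0.07 (adjusted p = 0.0106). The Junb call was lost without any one of the 4 samples compared (0.44 to 0.52) or with no FPKM limit, and the Dusp1 call without Control sample 2 or Esrrb sample 1 (0.40 to 0.54 over the 8 fits) or with only the compared groups. With Hh-CM in Esrrb-labelled cells 0 rose, and Fos, Egr2 and Dusp1 fell, beside 13.9% and 9.51% of all tested genes. Their log2 differences were -1.19 ± 0.28, -0.97 ± 0.18 and -0.49 ± 0.07 (limma, adjusted p = 0.0307, 0.0148 and 0.00502). The Fos call was kept in 1 of 6 fits without 1 library in which it was tested (-1.49 to -0.89), and the Egr2 call was lost without either Esrrb sample (-1.17 to -0.76 over the 8 fits). All but the Dusp1 call were lost when only the compared groups were fitted, and the Fos call also with no FPKM limit. Of 3 tested glucocorticoid-responsive genes, Fkbp5 rose with Hh-CM by 0.74 ± 0.06 in empty-vector cells (adjusted p = 0.000751) and by 1.04 ± 0.06 in Esrrb-labelled cells (adjusted p = 0.000132), while Sgk1 fell by 0.66 ± 0.05 (adjusted p = 0.000631) and by 0.96 ± 0.05 (adjusted p = 0.000108). Tsc22d3 was called with Hh-CM in neither line, so 1 of the 3 rose and 1 fell in each line. Of all tested genes 10.5% rose and 7.53% fell in empty-vector cells, and 13.9% and 9.51% in Esrrb-labelled cells. The list held 6 genes, of which Zbtb16 and Cdkn1c did not pass the FPKM limit. Mt1 had no matched locus in Hh-CM sample 1 and was not tested. It was 569.6 and 513.5 FPKM in Control samples and 286.9 in Hh-CM sample 2. In Esrrb samples it was 335.5 and 358.8, and in Esrrb+Hh-CM samples 215.7 and 200.2. Its value lay above its own Cufflinks interval in all 7 samples with a locus.

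Promoter windows from 250 bases before to 50 after a start were in the RefSeq table for 9 of the 10 members, 12 windows in all, and are described as sequence with no test. The E-box CACGTG was found in 3 of the 12 windows, 1 of Per1 and 2 of Tef, beside 7.15% of 32851 windows of all genes. The D-box TTATGTAA, or TTACATAA on the other strand, was found in 1 window, that of Per3, beside 0.938% of all windows, and the cAMP response element in 1, that of Hlf, beside 1.79%. The palindromic D-box form TTACGTAA, an estrogen-related receptor element TCAAGGTCA (other strand TGACCTTGA) and a Gli element GACCACCCA (other strand TGGGTGGTC) were in 0 of the 12 windows, beside 0.119%, 0.423% and 0.253% of all windows. No match in a member's window overlapped that of another motif. The stretches with E-boxes or D-boxes are shown with these in capitals, because they are the elements through which the clock and the PAR bZIP factors act. In mm9 they lie at chr11:68912255-68912320 (plus strand) for Per1, chr4:150418895-150419009 (minus strand) for Per3, and chr15:81632946-81633011 and chr15:81641676-81641741 (plus strand) for the 2 starts of Tef. The Per1 E-box is 166 bases upstream of its start, the Per3 D-boxes are 205 and 158 bases upstream, and the Tef E-boxes are 127 and 138 bases upstream of their starts.
Per1: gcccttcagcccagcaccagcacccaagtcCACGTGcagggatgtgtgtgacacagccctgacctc
Per3: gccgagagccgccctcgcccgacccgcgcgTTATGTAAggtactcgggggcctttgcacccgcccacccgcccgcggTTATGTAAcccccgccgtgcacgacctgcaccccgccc
Tef, first start: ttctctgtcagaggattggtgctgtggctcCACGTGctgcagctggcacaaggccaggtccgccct
Tef, other start: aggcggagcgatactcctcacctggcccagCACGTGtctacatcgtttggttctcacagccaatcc
The window of Per1 with the E-box belongs to the start at chr11:68912451, close to the later locus start of the 3 Hh-CM-treated samples described above.

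The pattern of Hlf over the 8 samples was set beside that of 10025 other tested genes above 0 in all samples. The 5 genes with the highest Pearson correlation of log2(FPKM + 0.1) with Hlf were Steap4 (r = 0.998), Slc35e1 (0.996), Has2 (0.996), Kif26b (0.994) and Emilin2 (0.994), over 8 samples that form 4 conditions and share their libraries. Steap4, which encodes a metalloreductase, was 14.0 and 14.9 FPKM in Control, 33.2 and 33.1 in Hh-CM, 39.6 and 38.7 in Esrrb, and 77.2 and 74.3 in Esrrb+Hh-CM samples, the same order of conditions as Hlf. Has2, a hyaluronan synthase, was 22.4 and 23.6 FPKM in Control and 38.4 and 38.2 in Esrrb+Hh-CM samples. Slc35e1 was 10.0 and 10.4 FPKM in Control and 13.3 and 13.3 in Esrrb+Hh-CM samples, a smaller difference with the same order.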

How the data were processed

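RNA-Seq libraries of 8 NIH3T3 samples, 2 per condition, were analysed as deposited. The deposited values are FPKM, which the paper calls RPKM. To make them, the authors prepared stranded mRNA libraries, trimmed reads (FASTX-Toolkit), aligned them to the mm9 genome (Bowtie2, TopHat2) and assembled transcripts with Cufflinks. For some genes, Hlf, Tef and Per2 among them, Esrrb sample 1 and Hh-CM sample 2 list the same Cufflinks locus name. Esrrb sample 1 also had 482 loci with a status other than OK, against 63 to 79 in the other samples. The part of this in the values of Esrrb sample 1 was not tested. Versions and the strand setting are not given in the sources used here. Read counts were not analysed here. Relative depth, read from the size of the smallest FPKM steps, was 0.743 to 1.54 times that of Control sample 1.

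Loci were matched to annotated mm9 genes by overlap (at least 0.5), since locus names often differ between samples. A gene was tested if it reached 1 FPKM in 2 or more samples. The 10284 genes that did were analysed by limma (version 3.58.1, R version 4.3.3) after taking log2(FPKM + 0.1), in a fit of the 4 group means with a variance trend. P-values were adjusted over all these genes by Benjamini-Hochberg, and an adjusted p below 0.05 was a call. Counts with an unadjusted p below 0.05 are given without the share of all tested genes at that level. The fit was tested on simulated data with normal noise of the same size for every gene. Unlike these data, the simulation had no single samples listed at 0, so it does not measure the error of the calls here. The study's limit of 1 on the log2 difference was an alternative, beside pseudocounts of 1 and 0.001, other FPKM limits, rescaling, locus rules, the replicate block, fits of the compared groups alone and left-out samples. Over all tested genes, values of 0 included, deviations of same-numbered samples had correlations from -0.0596 to 0.0623. Large deviations of such genes can mask a shared one, so whether the numbers pair samples stays unknown. Members and gene lists were chosen with earlier results of these data known. Named genes were all members, the largest called differences of each list (up to 4 per comparison), and the 5 genes most correlated with Hlf. Some genes of the lists are counted but not reported by name here. Other steps ran in Python 3.11.15 (numpy 2.4.6, pandas 2.3.3) and figures in matplotlib 3.10.9.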

Additional observations from a re-analysis of the deposited data

Results flagged for a closer look

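Among the members and listed genes 2 were flagged because the difference with Hh-CM differed between the cell lines by the interaction in limma. Ddit3 had an interaction of 0.50 ± 0.04 (adjusted p = 0.00863), with log2 differences of -0.23 in empty-vector and 0.27 in Esrrb-labelled cells. The Ddit3 FPKM lay above its own Cufflinks interval in all 8 samples. Pdk4 had an interaction of -0.62 ± 0.05 (adjusted p = 0.00841), with -1.11 and -1.74. Both stayed called in each of 8 fits without 1 library. With 2 samples per condition, single outlying samples could not be tested for.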

How the results depend on the processing

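No member difference that was called in the fit of all samples changed sign under the alternatives. Of 1108 alternative values of members 1055 moved by less than their standard error. Many of these could not move. Other FPKM limits, the replicate block, leaving out the variance trend and fitting only the compared groups keep the same log2 difference. So does leaving out a sample outside the comparison. The 1055 is therefore no measure of stability. Of the 53 values that moved further, 31 were values of Dbp or Nr1d1. Dbp was not called in the fit of all samples. Its difference between Esrrb+Hh-CM and Hh-CM cells was above 0 with the 0 kept and -0.66 with the 0 set to missing. Hlf stayed called in all 5 comparisons under every alternative other than the limit of 1 on the log2 difference, under which it was lost in Esrrb+Hh-CM against Esrrb cells. With that limit, which was not set for the interaction, the calls of members fell to 1, 1, 1, 1 and 0 and those of other clock genes to 1, 0, 1, 0 and 2, in the order of comparisons used in the report. Members called in Esrrb+Hh-CM against Control cells fell from 4 to 2 when only the compared groups were fitted. With no FPKM limit, other clock genes called against Control fell from 2 to 1 in Esrrb and from 5 to 3 in Esrrb+Hh-CM cells. The same counts, 1 and 3, came from only the compared groups, which also gave 2 in place of 4 in Esrrb+Hh-CM against Esrrb cells, as did leaving out the variance trend. With 1 FPKM required in all samples, 1 in place of 3 was called with Hh-CM. With values of 0 as missing, added after seeing the data, 4 in place of 2 were called in Esrrb against Control cells.

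With the replicate block, other clock genes called were 1 in Esrrb and 3 in Esrrb+Hh-CM against Control cells, and 2 in Esrrb+Hh-CM against Esrrb cells. It ended the calls of Per1 with Hh-CM in empty-vector cells, Tef in Esrrb against Control cells and Arntl with Hh-CM in Esrrb-labelled cells. The block moved no other count by over 1.5 times, and the correlations of same-numbered samples cannot tell whether samples are paired. Without 1 sample at a time, members called ranged over 3 to 4, 1 to 2, 2 to 4, 2 to 4, 2 to 5 and, in the interaction, 0 to 1, where the 1 was Dbp or Nr1d1 with a value of 0. Other clock genes called ranged over 1 to 2, 1 to 3, 2 to 5, 1 to 3, 2 to 3 and 0 to 0. Dbp or Nr1d1, with values of 0, were also among the members called without 1 sample in each of the 5 comparisons, so the ranges of members count them. The causes were not tested. Values listed at 0, and 2 samples per condition, limit what can be said of Dbp, Nr1d1 and differences near the size of those of Tef.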
